A study of Homo sapiens with 2 samples.

Results

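Broad open domains in G401 cells treated with MAK683 were taken as the ATAC-seq peaks of the MAK683 library that were at least 3000 bp long and lay on chromosomes 1-22. There were 1700 such peaks among 158856 on those chromosomes, a share of 1.07%. Both libraries together held 276190 peaks on all sequences. G401 is an established cell line derived from a kidney rhabdoid tumor. It lacks SMARCB1, a core subunit of the SWI/SNF chromatin remodeler, and neither library had a peak within 3 kb of the SMARCB1 start site. One culture received the solvent DMSO and the other MAK683 at 3 µM, each for 3 days, and each gave 1 library. ATAC-seq uses the Tn5 transposase to insert sequencing adapters into open chromatin, so that read ends pile up where DNA is accessible.

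MAK683 is a small molecule that binds EED, through which Polycomb repressive complex 2 (PRC2) is switched on, and so prevents the complex from methylating lysine 27 of histone H3. PRC2 targets include the promoters of many developmental regulators, which often lie in long stretches rich in CpG dinucleotides and stay silent and compact in cells that do not use them. Long open stretches are otherwise known from very active promoters and clustered enhancers. A comparison of long peaks between the libraries asks where open chromatin spans several kilobases after the inhibitor and whether the same stretch was already open without it.

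The domains were chosen by their measured length in the MAK683 library, so length and everything measured on the same peaks is a description. With 1 library per group no difference has a replicate check, no test was made, and the differences are those between these 2 libraries. The MAK683 library had 18265284 tags after filtering and the DMSO library 16598348. Heights are the pileup at the summit per 1000000 tags after filtering (RPM), where 1 tag is 0.0547 RPM in MAK683 and 0.0602 in DMSO. Intervals are 95% intervals of counting error only.

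Long peaks were fewer after MAK683. The MAK683 library had 1700 peaks of at least 3000 bp and the DMSO library 2944, a ratio of 0.577, although the ratio over peaks of all lengths was 1.42. The ratio fell further as the length minimum rose. At 5000 bp the counts were 262 and 646, a ratio of 0.406, and at 10000 bp they were 10 and 47, a ratio of 0.213. Broad peaks covered 6.95 Mb in MAK683, or 7.33% of all bases under MAK683 peaks, and 12.9 Mb in DMSO, or 15.5%.

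**Figure D1:**
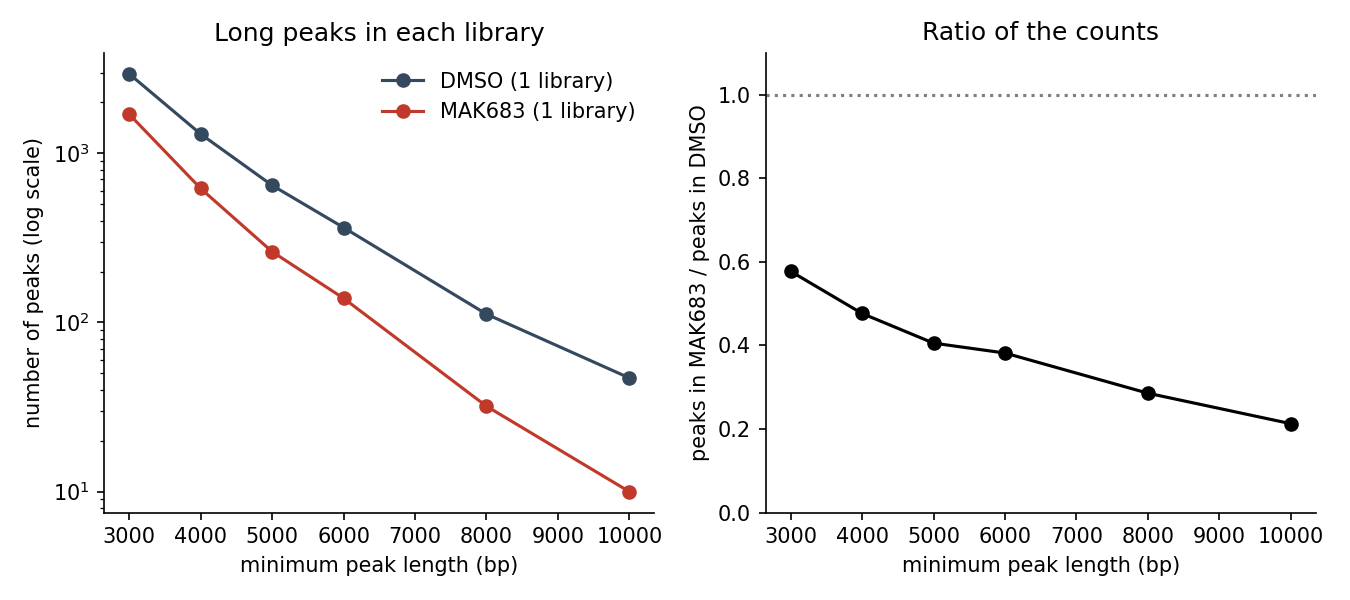
Number of peaks at or above each minimum length on chromosomes 1-22 in the DMSO library and the MAK683 library (left, log scale), and the MAK683 count over the DMSO count (right, with equality as a dotted line). The MAK683 count lies below the DMSO count at every minimum, and the ratio falls from 0.577 at 3000 bp to 0.213 at 10000 bp.

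The broad MAK683 peaks had a median length of 3661.5 bp (interval 3622 to 3720) and a longest peak of 13406 bp. Their summits held 11 to 353 tags, with a median of 30 tags or 1.64 RPM, against a median of 10 tags over all MAK683 peaks. The broad DMSO peaks were longer, with a median of 3828.5 bp, and taller, with a median of 36 tags or 2.17 RPM. Just inside the length minimum, 86 peaks less than 50 bp above it had a median height of 1.59 RPM and 82.5% of their bases under DMSO peaks. Just outside it, 100 peaks no more than 50 bp below it had a median of 1.37 RPM and 80.3% of their bases covered.

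Most of these stretches were open in DMSO too. Of the 1700 broad MAK683 peaks, 1668 (98.1%, Wilson interval 97.4 to 98.7) overlapped a DMSO peak by at least 1 bp. Over all MAK683 peaks on the same chromosomes, 57.0% had no DMSO peak. Among MAK683 peaks of 2000 to under 3000 bp, 93.7% overlapped a DMSO peak and 82.1% of their bases were covered. A high overlap was thus not particular to the domains. DMSO peaks covered 87.7% of the bases of the broad domains, and 640 domains were covered in full. At 1206 domains (70.9%) the longest overlapping DMSO peak was itself at least 3000 bp long. In the other direction, 1187 of the 2944 broad DMSO peaks (40.3%) overlapped a MAK683 peak of that length, and all 2944 overlapped a MAK683 peak.

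A single DMSO peak matched 1116 domains, and several matched 552 (32.5%): 383 domains had 2, 119 had 3, 39 had 4, 7 had 5, 2 had 6 and 2 had 7. The remaining 32 had none. At 170 domains (10.0%) DMSO peaks covered under 50% of the bases.

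Heights were mostly lower in MAK683. Among the 1668 domains with a DMSO peak, the log2 ratio of the MAK683 height to the tallest DMSO height had a median of -0.39 (order-statistic interval -0.41 to -0.36), against a median of -0.43 over all MAK683 peaks with a DMSO peak. The MAK683 height was the larger at 330 (19.8%), close to the 20.2% of all MAK683 peaks with a DMSO peak. It was at least 2-fold larger at 34 (2.04%), against 0.735% of all, and at least 2-fold smaller at 51 (3.06%), against 14.4% of all. For MAK683 peaks of 2000 to under 3000 bp these shares were 2.58% and 4.02%, so they were not particular to the domains. The counting interval of the single ratio lay above 0 at 41 domains (2.46%) and below 0 at 319 (19.1%). Over all MAK683 peaks with a DMSO peak these shares were 0.524% and 16.1%. Among MAK683 peaks of 2000 to under 3000 bp they were 2.33% and 18.1%, close to those of the domains.

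**Figure D2:**
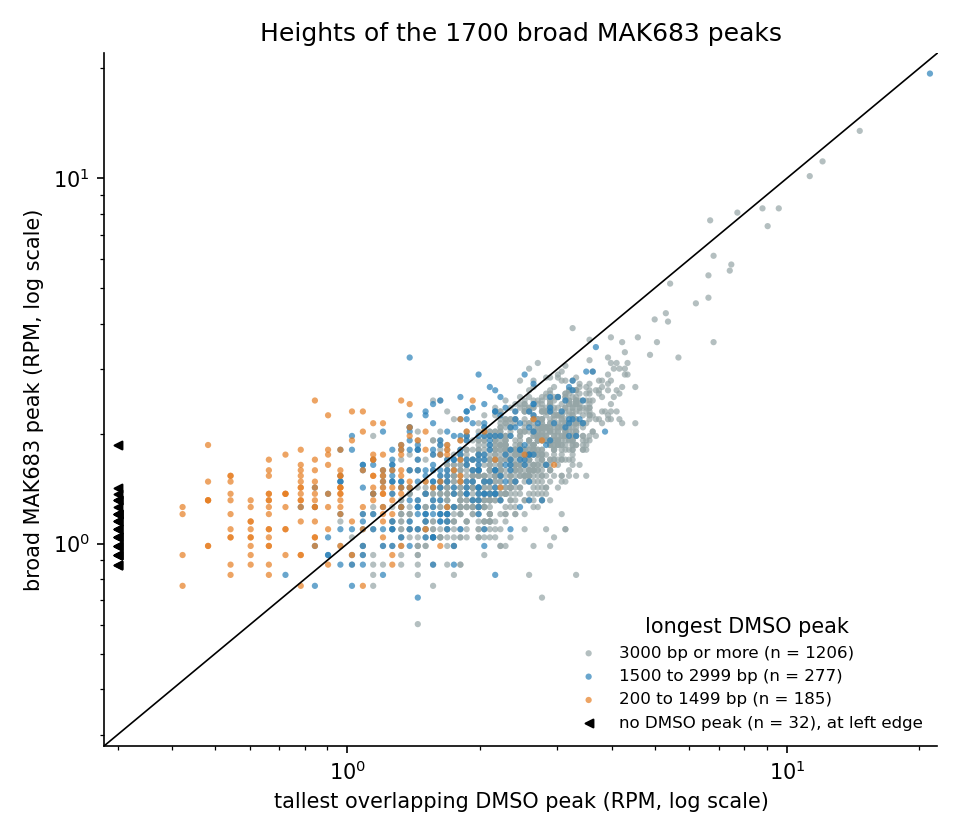
Height of each of the 1700 broad MAK683 peaks against the tallest overlapping DMSO peak, both in RPM on log scales, coloured by the length of the longest overlapping DMSO peak; the line marks equal heights. Points with a DMSO peak of 3000 bp or more lie mostly below the line, those with a DMSO peak under 1500 bp mostly above it, and the 32 without a DMSO peak are drawn at the left edge.

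The domains divided by what DMSO had in the same place. Where the longest DMSO peak was at least 3000 bp (1206 domains), the median log2 ratio was -0.47 and 72 domains were higher in MAK683. Where it was at least 1500 but under 3000 bp (277 domains), the median was -0.18 and 102 were higher. Where it was under 1500 bp (185 domains), the median was 0.57 (interval 0.45 to 0.65), 156 were higher, and 33 of the 34 domains with at least a 2-fold gain were found here. Together with the 32 that had no DMSO peak, 217 domains had only short or no DMSO counterparts, and DMSO peaks covered 34.4% of their bases. These 217 are called extended domains below. Their boundary of 1500 bp was set with these values known, and a taller MAK683 peak is more likely where the DMSO peak is short, since length and height come from the same tags. At the 32 without a DMSO peak the DMSO height is below what was called, and no ratio is given.

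Sequence around the summits is shown for domains from both ends of the comparison, because they let the base composition of domains with short or no DMSO peaks be read beside that of a domain with a long, tall one. The first is the domain with the highest ratio, 4316 bp from the PAX3 start site, at chr2:223156082-223156231. VGLL2 (chr6:117587160-117587309) and TOX3 (chr16:52579307-52579456) had the highest ratios among domains that hold a coding start site. The domain nearest TBX5 (chr12:114852185-114852334) and the TSLP domain (chr5:110408281-110408430) had no DMSO peak. EFNA3 (chr1:155050573-155050722) had the lowest ratio of all. Its DMSO summit lay outside the MAK683 domain, so this window is not where DMSO was tallest. Each line gives 150 bases of the plus strand of GRCh37 around the MAK683 summit, with CpG dinucleotides in capitals.
PAX3 nearest: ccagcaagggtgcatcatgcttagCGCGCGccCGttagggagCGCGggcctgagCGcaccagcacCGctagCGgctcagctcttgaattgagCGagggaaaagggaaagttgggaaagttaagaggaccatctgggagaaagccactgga
VGLL2: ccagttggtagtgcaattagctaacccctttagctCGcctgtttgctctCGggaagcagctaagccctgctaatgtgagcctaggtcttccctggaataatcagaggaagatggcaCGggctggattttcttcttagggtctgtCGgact
TOX3: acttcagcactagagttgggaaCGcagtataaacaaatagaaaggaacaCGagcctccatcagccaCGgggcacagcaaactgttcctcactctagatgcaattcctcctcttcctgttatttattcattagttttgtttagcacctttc
TBX5 nearest: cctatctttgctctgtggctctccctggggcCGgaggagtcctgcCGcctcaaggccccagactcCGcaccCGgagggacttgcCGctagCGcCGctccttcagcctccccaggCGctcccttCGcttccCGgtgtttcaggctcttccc
TSLP: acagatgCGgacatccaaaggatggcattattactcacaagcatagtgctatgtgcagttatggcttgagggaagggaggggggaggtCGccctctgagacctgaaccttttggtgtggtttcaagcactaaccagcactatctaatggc
EFNA3: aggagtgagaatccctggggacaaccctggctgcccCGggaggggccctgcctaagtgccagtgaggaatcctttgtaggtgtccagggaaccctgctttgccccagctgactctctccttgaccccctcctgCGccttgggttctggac

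The windows of the PAX3 and TBX5 loci held 10 CpG each, VGLL2 held 4, TOX3 held 3, and TSLP and EFNA3 held 2 each. CpG density at the summit thus varied among domains with a large gain. Over 300 bases at the summit, the broad MAK683 peaks had a median GC content of 61.3% and a median ratio of observed to expected CpG of 0.574, against 50.3% and 0.211 over all MAK683 peaks. MAK683 peaks of 2000 to under 3000 bp were as GC-rich, with 62.5% and 0.650. The GC box GGGCGG, read on both strands, occurred in 46.9% of the broad windows and in 14.01% of all MAK683 windows, and CCAAT in 29.5% and 31.6%. The NRF1 motif was found in 0.588% and 0.179%. For MAK683 peaks of 2000 to under 3000 bp the shares of GC box, CCAAT and NRF1 motif were 50.4%, 29.2% and 0.855%. For broad DMSO peaks they were 45.9%, 33.9% and 0.917%, so the GC box and NRF1 shares were not particular to the domains. The AP-1 motif TGANTCA was found in 6.18% of the broad windows and 8.69% of all, in 7.71% of those with a DMSO peak of at least 3000 bp and in 2.30% of the 217 extended domains. The motifs were searched as letters, and a match is not a binding site.

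The share of domains near developmental regulators was highest among the extended domains; no test was made of the difference. A list of 414 developmental transcription factor genes joined HOX, other homeobox, PAX, forkhead, SOX, T-box, GATA, basic helix-loop-helix and zinc finger families. A start site of this list lay inside or within 10 kb of 40 of the 217 extended domains (18.4%, Wilson interval 13.8 to 24.1), and of 54 of the 1206 domains with a long DMSO peak (4.48%, 3.45 to 5.80). Counting only start sites inside the domain, the shares were 5.07% (2.85 to 8.85) and 3.15% (2.30 to 4.30), whose intervals overlap, so the contrast rests on start sites outside the open stretch. The share was 34.4% (20.4 to 51.7) among the 32 domains with no DMSO peak. It was 3.29% (1.89 to 5.66) among the 365 broad DMSO peaks whose MAK683 counterparts were under 1500 bp. Among MAK683 peaks of 2000 to under 3000 bp it was 4.12%, but those were not chosen by their DMSO peaks. With a length minimum of 2000 bp and a DMSO peak under 1500 bp or none, it was 10.4% (110 of 1056). Peaks at the same gene are not independent, and the 40 domains lay at 34 genes.

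**Figure D3:**
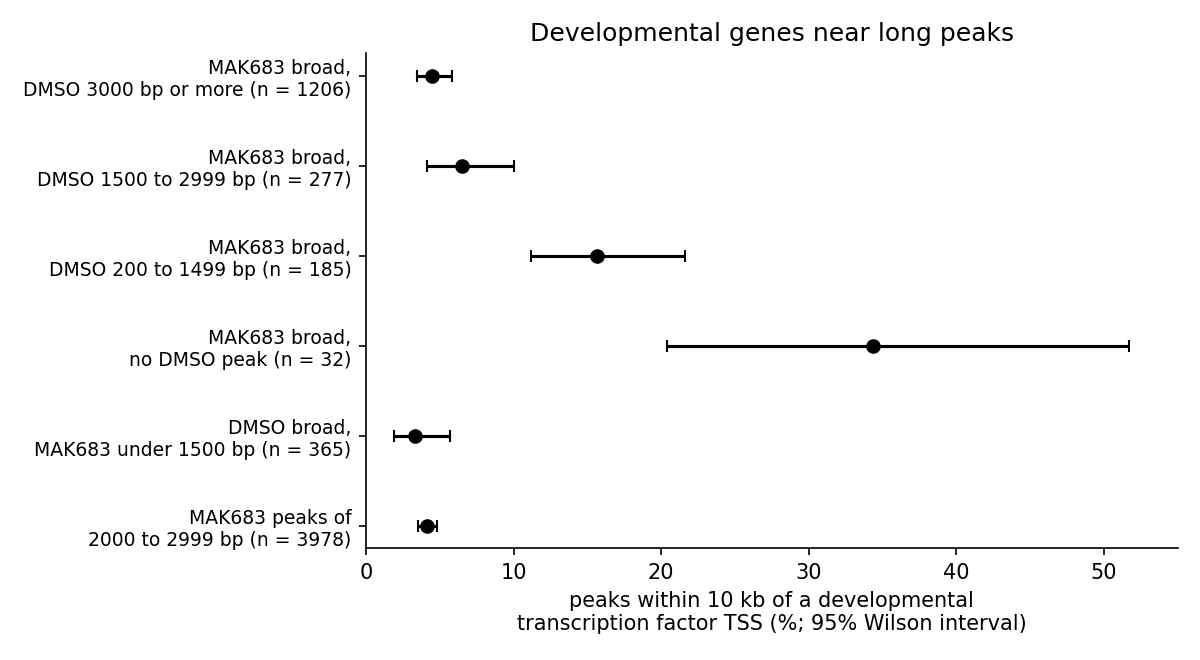
Share of long peaks inside or within 10 kb of the start site of a developmental transcription factor gene (point, in percent) with its 95% Wilson interval (bar), for broad MAK683 peaks by the longest overlapping DMSO peak, for broad DMSO peaks with only short MAK683 counterparts, and for MAK683 peaks of 2000 to under 3000 bp. The share is 34.4% where DMSO had no peak, 15.7% where its longest peak was under 1500 bp, and 3.29% to 6.50% in the other groups.

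At 29 of the 40 domains the start site was outside the open stretch, up to 10 kb away, and at 11 it was inside. Heights at the 40 ranged from 16 to 45 tags in MAK683, and 11 of them had no DMSO peak. At the 29 with a DMSO peak, DMSO heights ranged from 7 to 32 tags, the MAK683 height was the larger at 28, and the median log2 ratio was 0.86. The other 177 extended domains were higher at 128 of 156, with a median of 0.54, so that most extended domains were higher in both groups. The exception near developmental genes was HEY2, a Notch-responsive repressor, with 28 tags in MAK683 and 30 in DMSO.

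The PAX3 locus had the highest ratio of all domains. PAX3 is a regulator of neural crest and muscle progenitors. Its domain at chr2:223155277-223159401 was 4125 bp long and held 34 tags in MAK683, while a single DMSO peak of 421 bp held 8 tags, a log2 ratio of 1.95 (0.84 to 3.06). A second domain 5826 bp from the PAX3 start, of 3826 bp and 23 tags, had no DMSO peak. In a window of 30 kb centred on the first domain, the MAK683 library had 16 peaks over 17.8 kb and the DMSO library 1 peak over 0.421 kb.

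TBX3 and TBX5 are neighbouring T-box genes. TBX3, a transcriptional repressor that acts in limb, heart and mammary development, lay inside a domain of 3210 bp with 45 tags in MAK683. DMSO had 1 peak of 1011 bp with 22 tags there, a log2 ratio of 0.89 (0.16 to 1.63). The window of 30 kb around it held 23 MAK683 peaks and 2 DMSO peaks. TBX5, which patterns heart and forelimb, had a pair of domains within 10 kb of its start with 26 and 19 tags and no DMSO peak at either. The TBX3 window thus held few DMSO peaks, while at TBX5 only these domains were compared, not its start site. Across the family, 2 of 9 T-box genes with a start site in a MAK683 peak were broad, and 4 of 8 in DMSO. These shares were 22.2% and 50%, against 7.40% and 13.4% of all genes. TBR1, broad in both, held 43 tags in MAK683 and 44 in DMSO.

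PROX1, a regulator of lymphatic and liver cells, lay in a domain of 4276 bp with 24 tags against 11 in DMSO, where a peak of 270 bp was the only counterpart. A neighbouring PROX1 domain held 35 tags against 17. LHX9, a LIM homeobox gene of the gonad and brain, had domains with 32 and 22 tags in MAK683. DMSO had 1 peak with 19 tags at the first and none at the other, so that repeated domains were seen at both genes.

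Hedgehog effectors and homeobox partners followed the same order. GLI3 held 30 tags in MAK683 and 13 in DMSO (log2 ratio 1.07, 0.13 to 2.01), and GLI2 held 24 and 13 (0.75, -0.23 to 1.72). MEIS1, a cofactor of HOX proteins, held 39 and 19 (0.90, 0.11 to 1.69). The interval of GLI2 included 0 and those of GLI3 and MEIS1 did not. BCL11B, a T-cell and neuronal zinc finger factor, held 33 and 16 over a domain of 6482 bp that DMSO covered with 4 peaks of at most 876 bp.

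Further domains without any DMSO peak lay near EN1, HMX1, DLX5, BCL11A and HLX, with 16 to 22 tags, and over POU4F3, a factor of sensory hair cells, with 21 tags. HLX had 2 such domains of 20 tags each. These heights are moderate, since the lowest peak called in DMSO held 6 tags and the median broad MAK683 peak 30. The genes of this paragraph and of the 4 before it were named for lying near extended domains, after their values were seen, apart from those that the naming rule also gives.

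**Figure D4:**
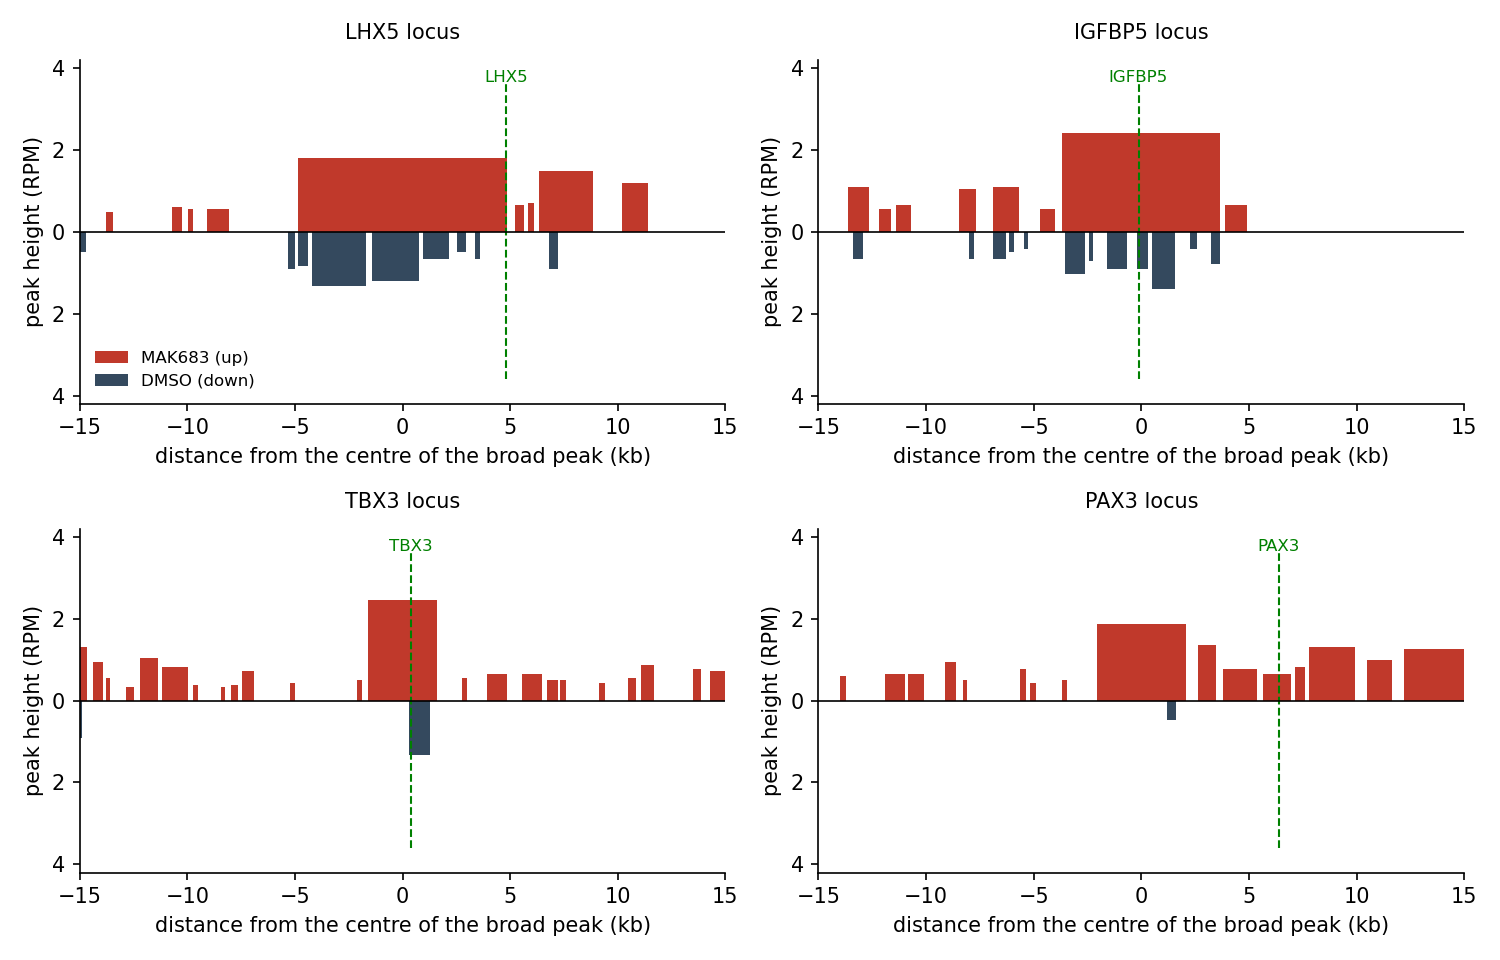
Peaks of the MAK683 library (red, upward) and the DMSO library (dark, downward) within 15 kb of the centre of the broad domains at LHX5, IGFBP5, TBX3 and near PAX3; bar width is peak length, bar height is RPM, and dashed lines mark start sites. The MAK683 domain is unbroken where DMSO has 6 peaks at LHX5 and 7 at IGFBP5, and the TBX3 and PAX3 windows hold 2 and 1 DMSO peaks.

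Peaks beside the extended domains were counted too. The 217 were chosen for short or no DMSO peaks, so few DMSO peaks beside them is not a separate result, and the difference was not tested. In the 15 kb on each side of the 217, without the domain itself, there were 1779 MAK683 peaks and 417 DMSO peaks, a ratio of 4.27, with more in MAK683 at 197 domains (90.8%). At the 1206 domains with a long DMSO peak the sums were 9738 and 10503, a ratio of 0.927. The ratio over all peaks on these chromosomes was 1.42. At the 365 broad DMSO peaks with MAK683 counterparts under 1500 bp, chosen the opposite way, the sums were 2668 and 3731, a ratio of 0.715. The ratio was 4.07 at the 40 extended domains near a developmental start site and 4.34 at the other 177.

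Coding start sites lay in 852 of the 1700 domains (50.1%, Wilson interval 47.7 to 52.5), 83 of which held at least 2, and a further 196 held start sites of noncoding genes alone. By comparison 7.20% of all MAK683 peaks held a coding start site. Other long peaks did so about as often, with 51.5% of MAK683 peaks of 2000 to under 3000 bp and 48.1% of broad DMSO peaks. The 942 coding genes inside broad MAK683 peaks were 7.40% of the 12729 with a start site in any MAK683 peak. For DMSO the numbers were 1637 of 12236, or 13.4%. Of the 942, 640 were inside a broad DMSO peak too and 302 (32.1%) were not, while 997 were inside a broad DMSO peak only.

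Of the developmental transcription factors, 260 had a start site in a MAK683 peak, which is 2.04% of all genes that did. Of these, 62 (23.8%) were inside a broad domain, against 7.40% of all genes. In DMSO 70 were (31.8% of 220). The genes inside broad domains overlapped in part: 36 were broad in both libraries, 26 in MAK683 only and 34 in DMSO only. The 61 with a ratio had a median log2 of -0.18, and 25 were higher in MAK683, against a median of -0.39 and 200 of 936 for all coding genes inside domains.

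The longest developmental domain was at LHX5, a LIM homeobox gene of the forebrain. It ran over 9686 bp with 33 tags in MAK683, while DMSO had 6 peaks over the same stretch, the longest of 2488 bp and the tallest of 22 tags (log2 ratio 0.45, -0.33 to 1.23). DLX1, a homeobox gene of interneurons, differed: its domain of 8889 bp with 37 tags lay within a DMSO peak of 11559 bp with 55 tags (-0.71, -1.31 to -0.11). HAND1, a heart and trophoblast factor, had 36 tags in MAK683 and 34 in DMSO, over a domain of 8088 bp that DMSO split into 4 peaks. PAX6, an eye and brain regulator, had 31 and 32 tags, with 3 DMSO peaks over 8067 bp. SOX21 and SOX4 held 28 and 38 tags in MAK683 against 16 and 23 in DMSO, and SOX12 held 36 against 61. Developmental genes were thus found on both sides of equality.

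HOX genes were among those that were lower. All 5 inside broad MAK683 peaks were in the HOXA cluster, which sets position along the body axis. All 5 were lower in MAK683, with a median log2 of -0.55. Most coding genes inside domains were lower too, 736 of 936 with a median of -0.39. HOXA10 held 35 tags over 5948 bp against 49 over 7625 bp in DMSO. HOXA13 was the only one not inside a broad DMSO peak, where its longest peak was 2816 bp. Of the HOX genes with a start site in a peak, 5 of 20 were broad in MAK683 and 10 of 25 in DMSO (25% and 40%). Over all genes the shares were 7.40% and 13.4%.

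**Figure D5:**
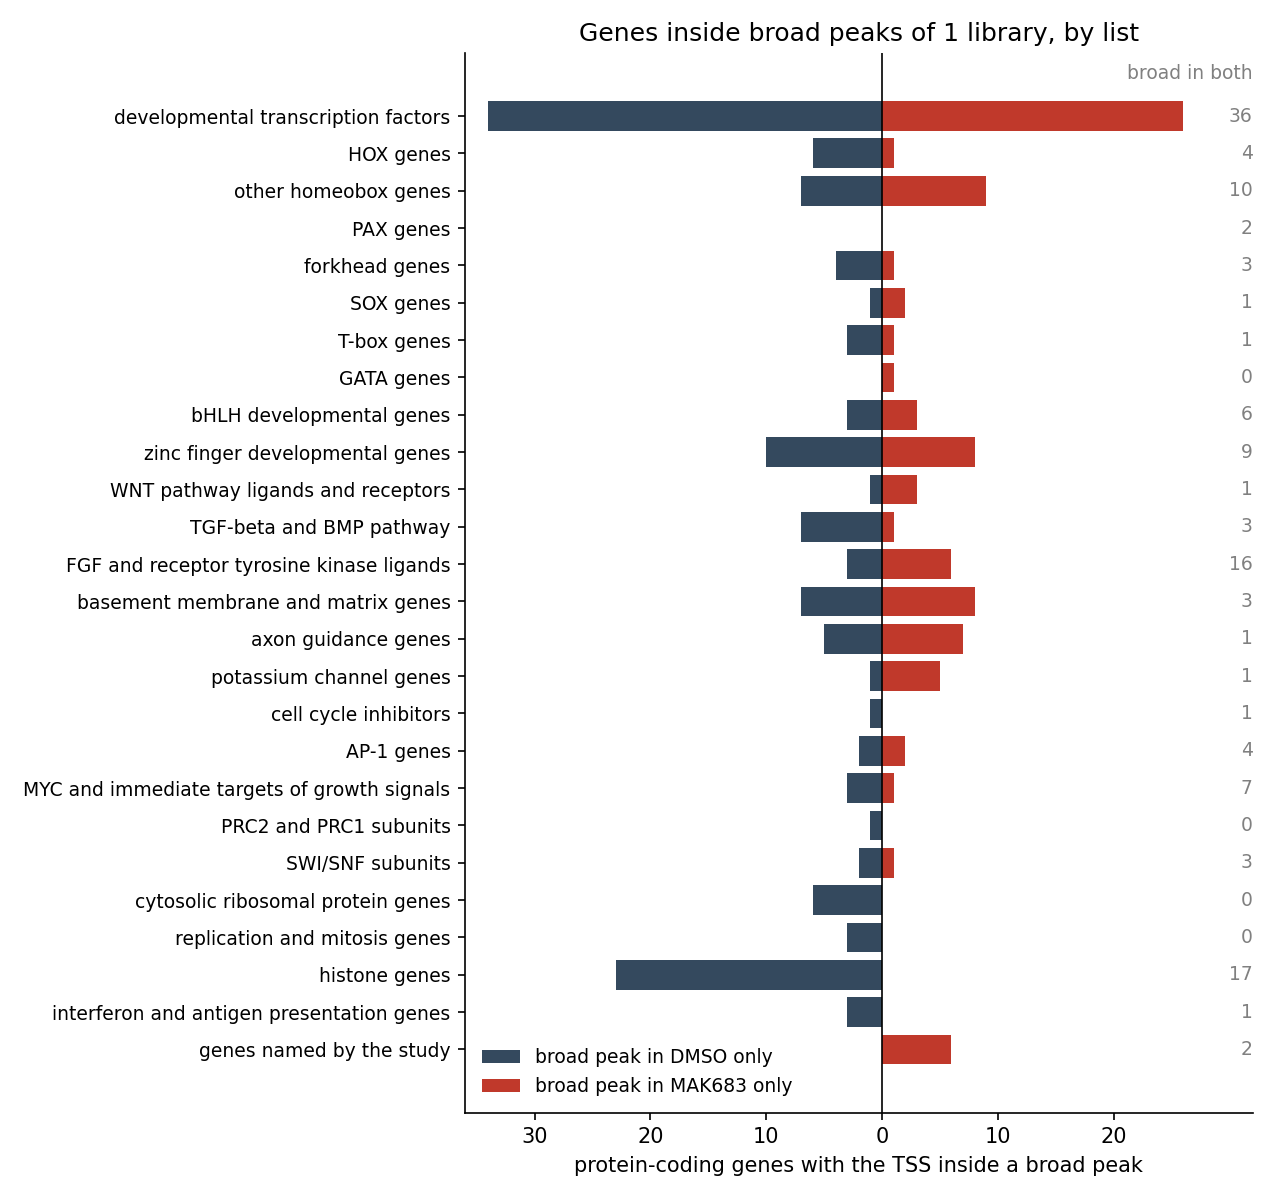
Protein-coding genes of each list with the start site inside a broad peak of the MAK683 library only (red, right) or of the DMSO library only (dark, left), with the number broad in both in grey. Over all genes the numbers were 302, 997 and 640; histone genes have 0, 23 and 17, and potassium channel genes 5, 1 and 1.

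The study singles out a set of genes as PRC2 targets or as released by its inhibition. It chose many of them with data from this cell line, so they are not independent of these libraries. Of 32 such genes on chromosomes 1-22, 26 had a start site in a MAK683 peak, and 8 of the 26 (30.8%) in a broad one, against 7.40% of all genes. In DMSO 2 of 18 (11.1%) were in a broad peak, against 13.4% of all genes. The median log2 ratio of the 8 was 0.68 and 6 were higher in MAK683, against -0.39 and 200 of 936 over all genes inside domains. COL4A1 and COL4A2 lie in the same domain, so its ratio, the highest among the 8 genes, was counted for each of them and raises these values. IGFBP5, a secreted binder of insulin-like growth factors, lay in a domain of 7338 bp at chr2:217556733-217564070 with 44 tags. DMSO had 7 separate peaks there, the longest of 1070 bp and the tallest of 23 tags (log2 ratio 0.80, 0.07 to 1.53). The shared promoter of COL4A1 and COL4A2, the main chains of basement membrane collagen, had 31 tags over 3599 bp against 11 tags in 2 DMSO peaks (1.36, 0.36 to 2.35).

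FRAS1, a basement membrane protein of the developing kidney, held 31 tags against 19 (0.57, -0.26 to 1.39), and FOXO1, a forkhead factor, held 28 against 20 (0.35, -0.48 to 1.18). Those ratios had intervals that included 0. GATA3, a zinc finger factor of T cells and kidney, was lower in height but longer: 27 tags over 6351 bp, against 32 tags in 4 DMSO peaks of at most 2162 bp (-0.38, -1.12 to 0.36). A second domain 6000 bp from its start held 32 tags against 15. BMP6, a bone morphogenetic protein, was the only one of the 8 lower in both height and length, with 30 tags and 3660 bp against 40 tags and a DMSO peak of 3948 bp.

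Axon guidance genes steer growing nerve processes. Of the 36 with a start site in a MAK683 peak, 8 (22.2%) were inside a broad one, and in DMSO 6 of 30, against 7.40% and 13.4% of all genes. Broad in MAK683 only were 7 of the 8, against 302 of 942 over all genes. The median log2 was 0.27 and 5 of 8 were higher, against 200 of 936 over all genes inside domains. NRP2, a receptor of semaphorins and VEGF, had 24 tags over 4285 bp, and DMSO 8 tags in peaks of at most 455 bp (1.45, 0.29 to 2.60). PLXNA4, a plexin, had 18 and 8 tags (1.03, -0.17 to 2.23), while UNC5A, a netrin receptor, had 18 and 27 (-0.72, -1.58 to 0.14). The genes of this list therefore did not all lie on the same side.

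Potassium channel genes set the resting potential of excitable cells. Of 41 with a start site in a MAK683 peak, 6 (14.6%) were inside a broad one, and in DMSO 2 of 34 (5.88%), where the shares over all genes were 7.40% and 13.4%. The median log2 of the 6 was 0.61 and 4 were higher, against -0.39 and 200 of 936 over all genes inside domains. KCNK9, a two-pore channel, held 24 tags against 9 (1.28, 0.17 to 2.38), and KCNS3 held 26 against 14 (0.76, -0.18 to 1.69). KCNH2, the cardiac hERG channel, was broad in both libraries and held 31 against 38 (-0.43, -1.12 to 0.25). Of the matrix genes with a start site in a peak, 11 of 81 were broad in MAK683 and 10 of 61 in DMSO (13.6% and 16.4%), with 3 in common. The 11 had a median log2 of -0.14.

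FGF and receptor tyrosine kinase genes carry growth signals between cells. Of those with a start site in a MAK683 peak, 22 of 59 were broad in MAK683 (37.3%, against 7.40% of all genes). In DMSO 19 of 50 were (38%, against 13.4%), and 16 were broad in both. The 22 had a median log2 of -0.36 and 10 were higher, against -0.39 and 200 of 936 over all genes inside domains. FGF18 held 40 tags against 66 (-0.86, -1.43 to -0.29), and DUSP6, a phosphatase that acts on ERK, held 50 against 59 inside a DMSO peak of 12935 bp. EFNA5, an ephrin ligand, held 31 against 24 (0.23). WNT pathway genes numbered 4 of 35 in MAK683 and 2 of 30 in DMSO (11.4% and 6.67%). TGF-beta and BMP genes numbered 4 of 46 and 10 of 42 (8.70% and 23.8%).

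Fewer histone genes were inside broad peaks in MAK683 than in DMSO, as was so for all coding genes (942 and 1637). Histone genes numbered 17 of 58 with a start site in a MAK683 peak and 40 of 59 in DMSO (29.3% and 67.8%, against 7.40% and 13.4% of all). All 17 were among the 40, and all 17 were lower in MAK683, with a median log2 of -0.56. Over all coding genes inside domains 736 of 936 were lower, with a median of -0.39. Many of the 17 share a domain, as H2AC19 and H3C15 did with 36 tags against 54. Ribosomal protein genes numbered 0 of 77 in MAK683 and 6 of 77 in DMSO, and replication and mitosis genes 0 of 37 and 3 of 39. Polycomb subunits numbered 0 of 23 and 1 of 27, and interferon and antigen presentation genes 1 of 27 and 4 of 25. The 1 was TAPBP, a chaperone of MHC class I loading, with 34 tags against 48.

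Immediate early genes answer growth signals quickly. Of the MYC and growth signal targets with a start site in a peak, 8 of 15 were broad in MAK683 and 10 of 15 in DMSO (53.3% and 66.7%), 7 in both. Of the AP-1 genes 6 of 13 and 6 of 14 were broad (46.2% and 42.9%), 4 in both. Over all genes the shares were 7.40% and 13.4%. FOS lay in a domain of 8445 bp with 35 tags against 45 (-0.50, -1.14 to 0.14). EGR1 had 51 against 66 over 8216 bp, and JUN 49 against 35 (0.35, -0.28 to 0.97), where the longest DMSO peak was 2840 bp. CDKN1B was the only cell cycle inhibitor inside a broad MAK683 peak, with 23 tags against 38 (-0.86, -1.61 to -0.12). SWI/SNF subunit genes numbered 4 of 24 in MAK683 and 5 of 27 in DMSO (16.7% and 18.5%).

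The largest ratios after PAX3 were spread over several kinds of genes. VGLL2, a cofactor of TEAD factors in skeletal muscle, held 27 tags against 8 (1.62, 0.48 to 2.76). TOX3, an HMG-box factor, held 23 against 7 (1.58, 0.36 to 2.80), ALCAM, an adhesion molecule, 28 against 9, and CDHR1, a cadherin of photoreceptors, the same 28 against 9. TLL1, a metalloprotease that processes matrix proteins, held 24 against 8, as did a domain 3784 bp from NRN1. A domain 1284 bp from ZFHX4, a zinc finger homeobox gene, held 22 against 7 (1.51, 0.29 to 2.74), and one 487 bp from RTL1, an imprinted gene, 27 against 9. One of the 12 highest lay within 1 Mb of a long run of unknown bases, with 45 tags against 14. Intervals of all 12 ratios were above 0, but the 12 were picked as the highest of 1668, so this is not separate support. Over all 1668 the interval lay above 0 at 41 (2.46%).

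The tallest domain without a DMSO peak was at UGT3A2, a glycosyltransferase gene, with 34 tags over 3137 bp. TSLP, an epithelial cytokine, had 25 tags over 4001 bp and GALNT15, which starts O-linked glycosylation, 24 tags over 3889 bp. Others lay 15968 bp from MRAP2 (24 tags), 22 bp from NIPAL4 (24 tags) and 848 bp from SFRP1, a secreted WNT antagonist (22 tags). The DMSO library had no peak at these 6 domains.

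At the 6 lowest ratios the MAK683 domain overlapped a longer DMSO peak with its summit elsewhere. EFNA3, an ephrin ligand, held 15 tags over 3745 bp, while 2 DMSO peaks covered 85.0% of it, the longer of 5694 bp and the taller of 55 tags (-2.01, -2.84 to -1.19). At BLACAT1 (9027 bp away) the values were 13 and 46 tags with a DMSO peak of 16341 bp. Those nearest FBXL18, SPATA2L and DCSTAMP lay in DMSO peaks of 9431 to 17040 bp, and 2 DMSO peaks, the longer of 11379 bp, covered 94.9% of the one nearest LMX1B. The DMSO summit lay outside the MAK683 domain at all 6, so those ratios set different positions side by side. The summit lay inside at 1573 of the 1668 domains, and the lowest ratio there was -1.43 (18 tags against 44), at the noncoding gene LINC02043.

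The longest domains were mostly not developmental. The longest, of 13406 bp, held 102 tags against 123 in DMSO and had no annotated start site inside. SAP25, which encodes a partner of the SIN3 corepressor, lay in a domain of 13287 bp with 34 tags against 38, ASIC4, an acid-sensing channel gene, in 11210 bp with 49 against 63, and FASTK with TMUB1 in 10163 bp with 36 against 45. A domain of 11306 bp near SAMD11 held 43 against 44, and one of 10405 bp, 819 bp from FOSB, 38 against 49. Domains of 10187 and 9820 bp at the noncoding genes ENSG00000249526 and ENSG00000286428 held 33 against 57 and 29 against 41. LHX5 was the last of the 12.

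The other 3 of the 12 longest lay within 1 Mb of runs of at least 1 Mb of unknown bases, as centromeres are, on chromosomes 10, 16 and 2. In all, 37 domains did so, as did 37 broad DMSO peaks. They were tall, with a median of 2.46 RPM, made up 9 of the 12 tallest domains, and 4 of them held a coding start site. The median log2 ratio of the 36 with a DMSO peak was -0.17, and 12 were higher in MAK683.

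Some domains lay close together along chromosomes. How often other long peaks did so was not counted, so clustering was not tested. Neighbouring domains can lie in the same longer DMSO peak. The domains nearest FBXL18 and at ACTB both lay in a DMSO peak of 17040 bp. There were 221 loci with at least 2 broad MAK683 peaks within 50 kb of each other, holding 578 of the 1700. CXXC5 and PDLIM7 had 8 each and AMOTL2 had 7, none of them with an extended domain. The density ran from 1.66 per 10 Mb on chromosome 21 to 10.5 on chromosome 19. The ratio of MAK683 to DMSO broad peaks ran from 0.294 on chromosome 22 and 0.350 on chromosome 17 to 0.865 on chromosome 18, so broad peaks were fewer in MAK683 on each of the 22 chromosomes.

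Among the domains, length and height were weakly related (Spearman's rho 0.20 over 1700 domains, which share 1 library). The share of bases that DMSO peaks covered and the log2 ratio had a rho of -0.53 over 1668 domains, where both depend on the same DMSO tags. Over the whole domain the median GC content was 55.9% for the extended domains and 56.9% for those with a long DMSO peak, and the observed to expected CpG ratio 0.572 and 0.458. Split into 3 groups of 556 by GC content, 15.5% of the lowest, 24.6% of the middle and 19.2% of the highest group were higher in MAK683.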

How the data were processed

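The study trimmed reads with Trim-galore and used Bowtie2 and hg19. The file headers show that the authors ran MACS 2.1.1.20160309 on each library alone for narrow peaks, and the submitters' processing notes list MACS2 2.1.0 and 2.2.7.1 as well. Each tag was moved by -100 bp and then lengthened to 200 bp, no control was given, 1 tag was kept per position, the q cutoff was 0.05 and local background was off. The deposited pileup is a signal in whole tags with no depth scaling. The fold enrichment the authors deposited is a ratio to the genome-wide background, and the deposited −log10 q-value served only for a filter. Single-end mode counted reads as tags: 18265284 of 26692938 were kept in MAK683 and 16598348 of 23901891 in DMSO. A peak ends where the pileup falls below the cutoff, so length depends on depth and on height.

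Groups came from the labels. Peaks matched when they shared at least 1 bp, and the DMSO height was the tallest matching peak. Start sites were those of GENCODE 44 lifted to GRCh37, 1 per gene, and no peak ran past a GRCh37 chromosome end. Sequence came from the GRCh37 assembly. Shares have Wilson intervals, medians order-statistic intervals, and single log2 ratios Poisson intervals (normal approximation for the log ratio). All are at 95% and of counting error only, and without molecular identifiers reads may be copies of a molecule. The interval, overlap and ratio code was tested on simulated peaks. The genes named were the 12 longest domains, the 12 highest and 6 lowest ratios, the 8 tallest without a DMSO peak, genes the study names, and up to 4 genes with the longest domains from each of 25 lists; others are marked in the text or were chosen from their list after values were seen. Members and lists were chosen with earlier results of these data known. Python 3.11.15, numpy 2.4.6, pandas 2.3.3 and scipy 1.17.1 were used. Chromosomes X and Y, unplaced sequences and the mitochondrion were left out of the comparison.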

Additional observations from a re-analysis of the deposited data

Results flagged for a closer look

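Chromosome Y lay outside the comparison and had 15 broad peaks in the MAK683 library and 7 in the DMSO library, covering 83.5 kb and 30.8 kb; it was noted because the MAK683 count exceeded that of the control library. On chromosome X the counts were 10 and 23, and on unplaced sequences and the mitochondrion 24 and 26.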

How the results depend on the processing

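No paired analysis was possible because each group has 1 library, and for the same reason no replicate could be left out. The ratio of broad peak counts stayed below 1 and the median log2 height ratio below 0 under every alternative run. With minima of 2000 and 4000 bp, 95.03% and 99.2% of broad MAK683 peaks had a DMSO peak and 84.5% and 90.5% of their bases were covered. With −log10 q of at least 10, these shares were 93.1% and 83.8%, and 15.5% of peaks were higher in MAK683. With peaks at most 200 bp apart joined they were 96.3% and 84.9%. Requiring 50% of the DMSO peak inside gave 92.8% and 81.5%, with 64.6% matched by a long DMSO peak; joining over 500 bp gave 66.9% for the last. Heights in unscaled tags gave a median log2 of -0.25 and 25.7% higher, fold enrichment -0.32 and 22.4%, domains chosen in DMSO -0.49 and 5.40%, and regions joined over both libraries -0.45 and 12.1%. A coding start site lay in 54.9% with every basic transcript, 53.4% within 1000 bp, 61.6% with genes of every biotype, and 52.5% where the DMSO summit was inside.

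The alternatives for extended domains, the 500 bp joining and the set with the DMSO summit inside were chosen after seeing the data. The share of extended domains near a developmental start site was 12.4% within 5000 bp and 5.07% with the start site inside, against 3.15% with it inside for domains with a long DMSO peak. It was 12.8% and 10.6% with peaks joined over 200 and 500 bp, and 10.4% with a minimum of 2000 bp; at 4000 bp the share for domains with a long DMSO peak was 6.11%. Leaving out peaks near long runs of unknown bases moved none of the 10 results beyond its interval. Counting error limits single ratios, whose interval included 0 at most domains.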
